A study of Saccharomyces cerevisiae with 4 samples.

Results

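The 10 genes of chitin synthesis and its precursor supply in the budding yeast Saccharomyces cerevisiae were taken by systematic name from a deposited table of 6484 features. All 10 are listed there. They are the chitin synthases CHS1 (YNL192W), CHS2 (YBR038W) and CHS3 (YBR023C), the synthase factors CHS4, also named SKT5 (YBL061C), CHS5 (YLR330W), CHS6 (YJL099W) and CHS7 (YHR142W), and the precursor enzymes GFA1 (YKL104C), GNA1 (YFL017C) and PCM1 (YEL058W). RNA came from the strain BGL-6Kl, called the parent here, and from a BGL-6Kl derivative labelled ΔYGP1, called the deletion strain. Both carry the BGL-6Kl background, which the labels do not spell out, and neither was treated. Cultures grew for 48 h in YPD, a rich glucose medium, at 30 °C and 200 rpm, and each strain gave 2 biological replicates. The series chose 48 h as the earliest time at which a cell-bound activity it names BGL differed clearly between the strains. How many independent clones the deletion strain stands for is not given in the sources used here.

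Chitin is a polymer of N-acetylglucosamine that forms a minor but essential part of the yeast cell wall. Chs2 lays down the primary septum at division, Chs3 makes most of the remaining chitin, including the ring at the bud neck, and Chs1 repairs the septum when daughter cells separate. All of them use UDP-N-acetylglucosamine, which cells build from fructose 6-phosphate through Gfa1, Gna1, Pcm1 and the pyrophosphorylase Qri1. A culture at 48 h in YPD can hold dividing and resting cells, and from bulk RNA, fewer cells of a kind and less RNA per cell cannot be told apart.

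The authors deposited 1 mean normalised read count per strain and gene, which carries no SD. The reads of the libraries behind each mean were recovered for 6181 features in both strains, 9 of the 10 genes among them. Libraries are lettered A and B by depth within a strain, and which of them is replicate 1 or 2 of the labels is not known. The total of uniquely recovered reads was 14921027 and 12480010 for the parent (libraries A and B) and 10098616 and 7400916 for the deletion strain. Each total covers the features solved in that strain, 6368 for the parent and 6195 for the deletion strain, so the totals of the strains do not compare their depth. The most abundant features are mostly missing from these sums. Above a mean of 20000, the sums hold 79 of 195 features for the parent and 0 of 161 for the deletion strain. Scaling by total recovered reads, used below, sums only the 6181 features recovered in both strains. YGP1, the targeted gene, averaged 62470 for the parent against 18171 for the deletion strain, or 29.1% of the parental level (authors' deposited table, adjusted p = 2.88e-08). It fell but was not at 0, so the second strain is named by its label. Among the 5264 features that reached 50 reads in all libraries, the replicates of a strain differed by a median of 0.18 (parent) and 0.28 (deletion strain) in absolute log2 terms. As a description across these features, which are not independent, Pearson's correlation of log2 values with each deletion library was 0.910 for parental library A, but 0.875 and 0.878 for parental library B.

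None of the 10 genes changed between the strains by the authors' test, whereas 20% of all features did at an adjusted p below 0.05 (9.65% higher and 10.3% lower in the deletion strain). The lowest adjusted p among the 10 was 0.385 and the lowest unadjusted p was 0.181, both for CHS7 and both taken from the authors' deposited table. At an unadjusted p below 0.05 the count was again 0 of 10, against 2065 of 6484 features. The deposited log2 fold changes of the deletion strain over the parent ran from -0.37 for CHS6 to 0.40 for CHS4, with a median of -0.06, and the median over all features was 0.02. The median absolute log2 fold change was 0.24 for the 10 genes and 0.51 for the 6408 features with a finite value, 40.8% of which differed by no more than CHS4. A moderated test on the recovered reads with limma also called 0 of the 9 genes it could test, where it called 28.7% of features (848 higher and 909 lower, but 1103 higher and 723 lower with total recovered reads as scaling). The libraries of the strains did not overlap for 5 of these 9 genes, against 66.2% of all recovered features. Both tests use the same 4 libraries, so they are not separate checks.

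**Figure D1:**
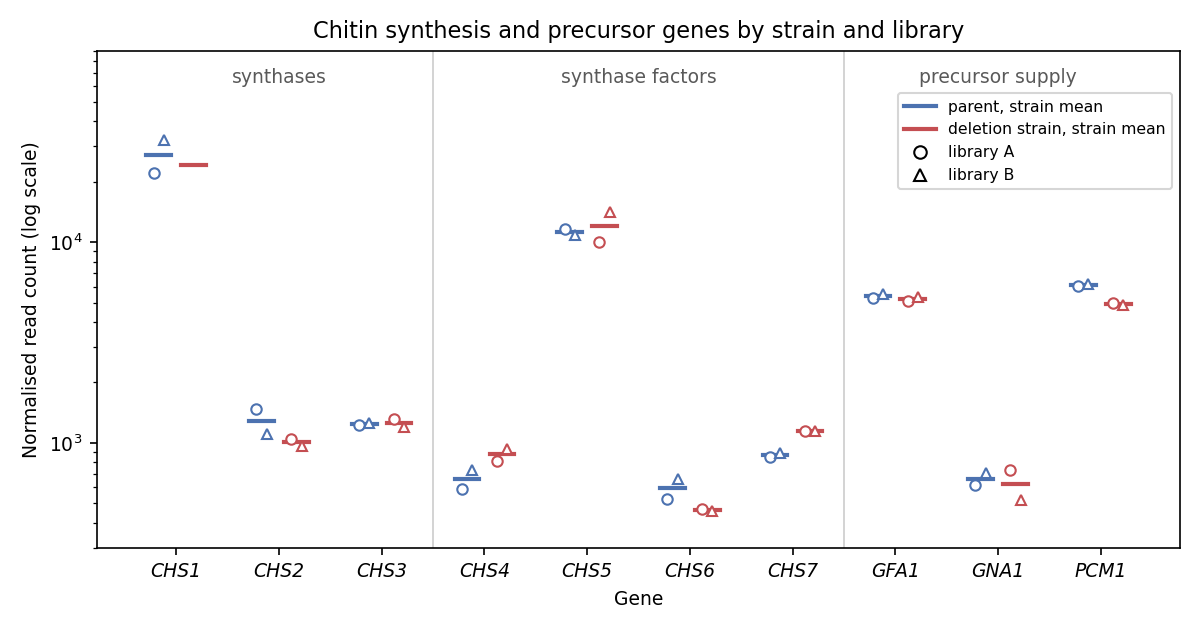
Normalised read counts on a log scale for the 10 genes, with the authors' strain means as bars and the recovered libraries A (circles) and B (triangles) as open symbols, parent in blue and deletion strain in red. CHS1 is the highest gene in both strains at 27187 and 24232, its deletion libraries are not shown because their reads were not recovered, and the strain means of every gene lie close together.

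Among the synthases, CHS1 had by far the most abundant transcript. Its mean was 27187 in the parent, with 22141 in library A and 32234 in library B, and 24232 in the deletion strain. For the deletion strain 4 pairs of whole reads gave this mean. They correspond to 18662 and 29803, to 32990 and 15474, to 4333 and 44131, or to 47318 and 1146 in libraries A and B. The first of these pairs is 1.60-fold apart, a gap reached by 10.1% of features, and the second is 2.13-fold apart, a gap reached by 2.34%. The remaining pairs are 10.2-fold and 41.3-fold apart, gaps reached by 0% of the 5264 features. No pair was chosen, so CHS1 rests on its strain means. Its log2 fold change was -0.17 (authors' deposited table, adjusted p = 0.815), while its parental libraries alone were 1.46-fold apart.

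CHS2, the septum synthase whose transcript peaks in mitosis, had 1468 and 1112 in the parental libraries, against 1048 and 968 in those of the deletion strain. Both deletion libraries lay below both parental ones, but parental library B was closer to them than to parental library A. The mean in the deletion strain was 78.1% of that in the parent (log2 fold change -0.36, authors' deposited table, adjusted p = 0.426). The limma interval (95%) of that difference ran from -0.82 to 0.14 on the log2(value + 1) scale. Without parental library A its estimate was -0.14, and without parental library B it was -0.54.

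CHS3, the bulk synthase, was the gene with the closest strain means. It had 1222 and 1257 in the parental libraries, against 1323 and 1204 in those of the deletion strain, so the strains overlapped, with the deletion values on either side of the parental ones. The deletion mean was 101.9% of the parental mean (log2 fold change 0.03, authors' deposited table, adjusted p = 0.963). The limma interval was -0.41 to 0.47 on the log2 scale.

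The 4 synthase factors, which bring Chs3 to the plasma membrane and activate it there, had differences of either sign, and 0 of 4 passed. CHS4, which encodes the Chs3 activator Skt5, had 592 and 733 in the parental libraries, against 817 and 936 in those of the deletion strain. Both deletion libraries were above both parental ones, by 1.32-fold in the means (authors' deposited table, adjusted p = 0.387, limma log2 interval -0.08 to 0.89). CHS7, which encodes a chaperone for the exit of Chs3 from the endoplasmic reticulum, had 853 and 894 against 1144 and 1145. The libraries of each strain lay close together and the strains did not overlap. The deletion mean was 1.31-fold that of the parent (authors' deposited table, adjusted p = 0.385, limma log2 interval -0.05 to 0.83).

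CHS5 and CHS6 encode subunits of exomer, the coat that carries Chs3 from the trans-Golgi network to the cell surface. CHS6 had 528 and 662 in the parental libraries, against 467 and 457 in those of the deletion strain. The deletion libraries were below the parental ones, and the means differed by a log2 fold change of -0.37 (authors' deposited table, adjusted p = 0.490, limma log2 interval -0.85 to 0.14). CHS5 had 11634 and 10906 against 9985 and 14151. The parental values lay between those of the deletion libraries, which were 1.42-fold apart, a wider gap than that of 78.6% of features. Its log2 fold change was 0.10 (authors' deposited table, adjusted p = 0.949, limma log2 interval -0.45 to 0.61). The CHS5 estimate turned to -0.17 without deletion library B and was 0.33 without deletion library A.

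The 3 precursor genes had deposited log2 fold changes of -0.32, -0.08 and -0.04, and 0 of 3 passed. Scaling by total recovered reads moved the median of all features from 0.01 to 0.13 and these genes with it, to -0.19 for PCM1, 0.020 for GNA1 and 0.080 for GFA1. The signs of GNA1 and GFA1 turned by that shift alone, and all 3 genes stayed below the median of all features. GFA1, which encodes glutamine-fructose-6-phosphate amidotransferase, the first and rate-limiting enzyme of the route, had 5263 and 5514 in the parental libraries, against 5108 and 5356 in those of the deletion strain. The strains overlapped (authors' deposited table, adjusted p = 0.953, limma log2 interval -0.49 to 0.40). An open reading frame on the opposite strand overlaps GFA1 over 255 bases in the R64 annotation. It is not among the features analysed here, and strandedness is not given, so its reads cannot be told apart from those of GFA1.

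GNA1, for the glucosamine-6-phosphate acetyltransferase, had 618 and 711 in the parental libraries. In the deletion libraries it had 736 and 518, one above and the other below both parental values (authors' deposited table, adjusted p = 0.982, limma log2 interval -0.63 to 0.43). PCM1, for the phosphoacetylglucosamine mutase, was the precursor gene with the most even replicates. It had 6041 and 6184 against 4970 and 4849, and the strains did not overlap. The deletion mean was 80.3% of the parental one (authors' deposited table, adjusted p = 0.484, limma log2 interval -0.76 to 0.13).

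The intervals limit what could have been missed. For all 9 genes tested with limma, the interval stayed within a 2-fold difference in either direction, with a lowest bound of -0.85 (CHS6) and a highest of 0.89 (CHS4), and half-widths between 0.44 and 0.53 on the log2 scale. Without parental library B only 5 of the 9 intervals stayed within 2-fold, with CHS2, CHS4, CHS7 and PCM1 reaching beyond it. Without parental library A it was 6 of 9, with CHS6, CHS7 and PCM1 reaching beyond. CHS4 alone reached beyond it without deletion library A and with total-read scaling. When features without any spread between replicates were kept, CHS2 and CHS6 did so too without deletion library A. In such a fit without deletion library B, CHS6 did. With total-read scaling, which moved the median of all features to 0.13, the intervals of CHS4 (0.04 to 1.03) and CHS7 (0.04 to 0.98) left out 0. Their limma adjusted p under that scaling was 0.0975 and 0.0924.

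**Figure D2:**
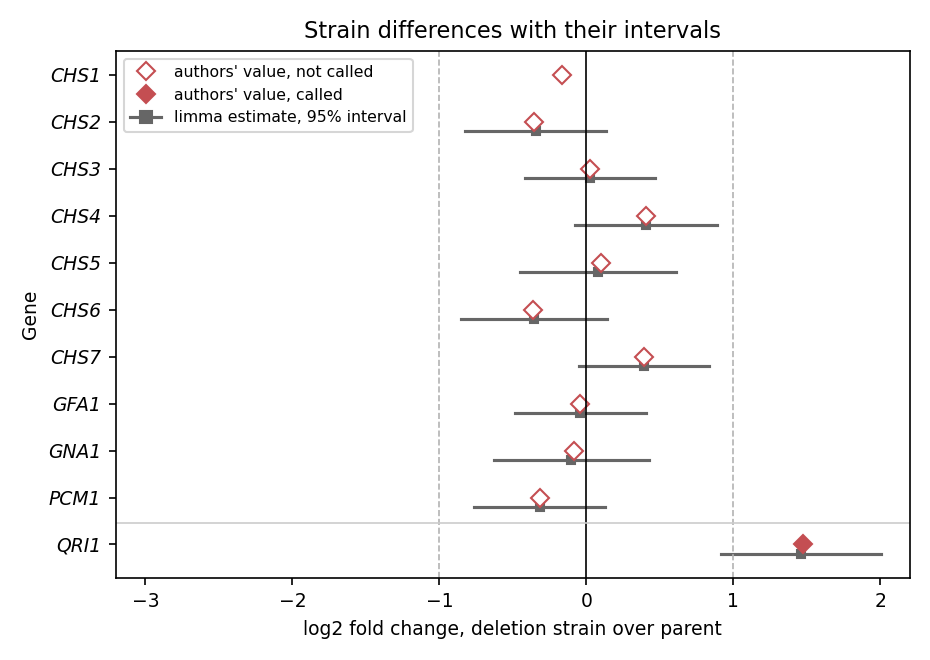
Log2 fold change of the deletion strain over the parent for the 10 genes and, below the line, QRI1. Diamonds are the authors' deposited values, filled where called, and grey squares with lines are limma estimates with 95% intervals from the recovered libraries, available for all but CHS1; dashed lines mark a 2-fold difference. The 9 intervals of the chitin genes all include 0 and stay inside the dashed lines, while that of QRI1 runs from 0.91 to 2.0.

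Levels per kilobase of coding length in R64, computed from the strain means, separated the 10 genes more than the strains did. CHS1 had 8006 normalised reads per kilobase for the parent against 7135 for the deletion strain, ranks 469 and 484 among 5853 protein-coding genes. CHS2 had 446 and 348 per kilobase, and CHS3 had 354 and 361. In these means CHS1 was thus 17.9-fold and 20.5-fold above CHS2, in the parent and the deletion strain, and 22.6-fold and 19.8-fold above CHS3. CHS2 and CHS3 ranked between 3537 and 3999 in either strain.

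The order below CHS1 was CHS5, PCM1, GFA1, GNA1 and CHS7 in both strains. CHS5 had 5590 per kilobase for the parent against 5986 for the deletion strain. In the parent its libraries, at 5771 and 5410, did not overlap those of CHS1 at 6520 and 9492. PCM1 had 3651 and 2933, and GFA1 had 2502 and 2429, with no overlap between the libraries of these 2 genes in either strain. GNA1 had 1384 and 1307, and CHS7 had 918 and 1203. The libraries of GNA1 and CHS7 did not overlap in the parent, but in the deletion strain the CHS7 libraries, at 1203 and 1204 per kilobase, lay between those of GNA1 at 1533 and 1080. Levels per kilobase of CHS2, CHS3 and CHS4 lay close together. CHS2 was above CHS3 in both parental libraries, at 508 and 385 against 349 and 359 per kilobase. CHS2 was below CHS3 in both deletion libraries, at 362 and 335 against 378 and 344 per kilobase, although there the ranges of these genes overlapped. CHS4 had 317 per kilobase for the parent against 419 for the deletion strain, and CHS6 was the lowest in both, at 266 and 206. The parental libraries of CHS4, at 283 and 350 per kilobase, overlapped those of CHS3 and of CHS6 at 236 and 295, whereas in the deletion strain CHS4 lay above both genes in each library, at 391 and 448.

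**Figure D3:**
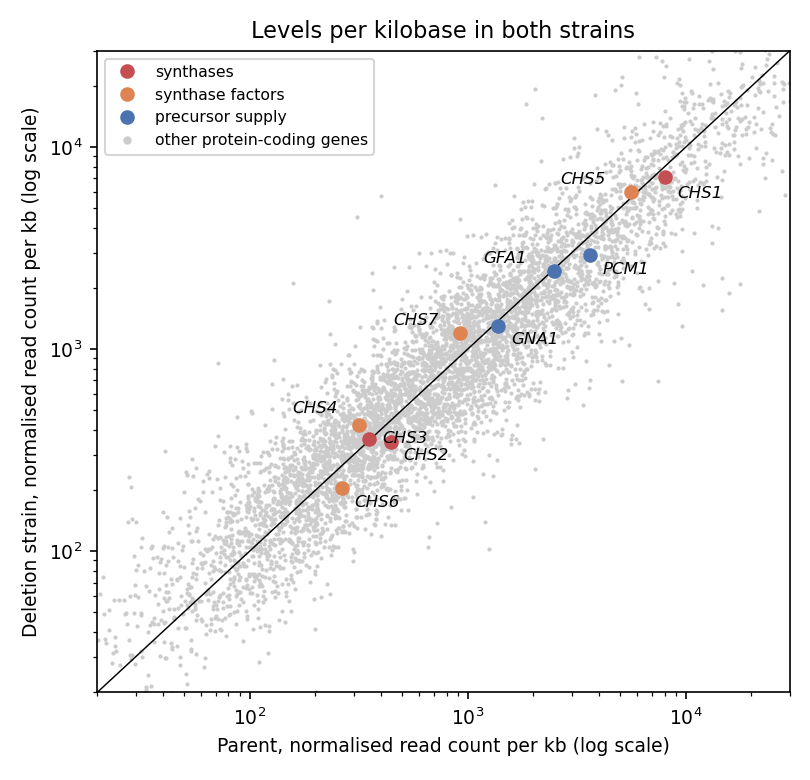
Normalised read count per kilobase in the parent (horizontal) and the deletion strain (vertical), both on log scales, for protein-coding genes (grey) and the 10 chitin genes by role; the diagonal marks equal levels and genes outside the plotted range are not shown. CHS1 sits near the top at 8006 and 7135, CHS6 at the bottom at 266 and 206, and the 10 genes lie near the diagonal.

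Around the 10 genes, 53 others in 6 lists of neighbouring steps were counted in the authors' deposited table, where 8 were higher and 6 lower (26.4%, against 20% of all features). On the supply side the step after PCM1 did change. QRI1, for the UDP-N-acetylglucosamine pyrophosphorylase that completes the precursor, had 195 and 183 in the parental libraries, against 590 and 458 in those of the deletion strain. All deletion values were above all parental ones, and QRI1 was 2.78-fold higher (authors' deposited table, adjusted p = 0.000186). With limma QRI1 passed in all 11 settings that leave out features without any spread between replicates, among them those without 1 library (adjusted p from 0.000353 to 0.0376), and in neither of the fits that keep such features, where 0 features passed. Whether QRI1 differed from GFA1, GNA1 or PCM1 in its response was not tested. In the main limma fit its interval was 0.91 to 2.0, and the upper bounds of those genes were 0.40, 0.43 and 0.13. Without parental library B the intervals of QRI1 and GFA1 overlapped. Per list, 3 of 6 genes beside the precursor route rose and 0 fell. These were QRI1 and the hexokinase genes HXK1 (4.60-fold) and HXK2 (2.06-fold, authors' deposited table, adjusted p = 0.000121 and 0.00492), whereas GLK1, PGI1 and GLN1, for glutamine synthetase, had log2 fold changes of -0.10, 0.35 and -0.54 and did not pass. The reads of HXK1 were not recovered for the deletion libraries, so limma did not test HXK1. HXK2 lost its call with limma without the intensity trend (adjusted p = 0.0604), and the median log2 fold change of this list was 0.70.

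Other users of UDP-N-acetylglucosamine had 2 rises and 0 falls among 9 genes (22.2%, near the 20% of all features), with a median log2 fold change of 0.19. ALG7, for the first enzyme of N-glycan assembly, was 1.83-fold higher, with 334 and 294 against 508 and 639 (authors' deposited table, adjusted p = 0.0492). GPI1, for a subunit of the enzyme that starts GPI anchors, was 1.95-fold higher, with 270 and 335 against 697 and 486 (authors' deposited table, adjusted p = 0.0300). Both lost their call with limma without the intensity trend and when single libraries were left out. For ALG7 these were parental library B and deletion library B, with adjusted p up to 0.124. For GPI1 these were parental library A and deletion library A, with adjusted p up to 0.0798. ALG14, for a subunit of the enzyme that adds the second N-acetylglucosamine to that glycan, had 286 and 198 against 407 and 417 and did not pass the authors' test (log2 fold change 0.77, authors' deposited table, adjusted p = 0.102). With limma ALG14 passed in 7 of the 11 settings (adjusted p from 0.0204 to 0.352).

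Genes that act on Chs3 transport or chitin deposition had 0 calls among 8 by the authors' test, against 20% of all features. Positive values were found for 7 of the 8, and for 3275 of the 6408 features with a finite value. Log2 fold changes in this list ran from -0.38 to 0.94, with a median of 0.47, and a shared direction was not tested. BNI4, which anchors Chs3 at the bud neck, had 397 and 238 in the parental libraries, against 510 and 394 in those of the deletion strain (log2 fold change 0.51, authors' deposited table, adjusted p = 0.377). RCR1, which lowers chitin deposition when overexpressed, had the largest value, 0.94 (authors' deposited table, adjusted p = 0.0684). PFA4 of this list was 1.90-fold higher, with 198 and 157 against 428 and 247 (authors' deposited table, adjusted p = 0.197). With limma PFA4 did not pass in the main fit (adjusted p = 0.0541) or without the intensity trend (0.136). It passed with limma when a mean of at least 20 was required (adjusted p = 0.0488) and with total-read scaling (0.0281). Septum assembly genes that act beside Chs2 had 1 rise and 1 fall among 13 (15.4%, below the 20% of all features), with a median of -0.29. MYO1, the myosin of the contractile ring, was 2.06-fold lower, with 512 and 392 against 261 and 178 (authors' deposited table, adjusted p = 0.0187). CDC15, a kinase of mitotic exit, was 1.96-fold higher, with 1084 and 1052 against 2207 and 1984 (authors' deposited table, adjusted p = 0.00604).

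The mitotic list, of genes expressed with CHS2 and of regulators such as FKH2, also had 1 rise and 1 fall among 10. This is the same share as the 20% of all features, and the median log2 fold change was -0.25. CDC20, an activator of the anaphase-promoting complex, was 1.72-fold lower, with 818 and 716 against 333 and 557. FKH2, a transcription factor of the mitotic cluster, was 2.08-fold higher, with 542 and 346 against 983 and 866 (authors' deposited table, adjusted p = 0.0325 and 0.00592). CLB2, the mitotic cyclin, had 68.4 and 108 against 88.0 and 47.7, and the strains overlapped (authors' deposited table, adjusted p = 0.802). CDC20 lost its call with limma when any of parental library A, parental library B or deletion library A was left out (adjusted p up to 0.153), and MYO1 without parental library A or deletion library B (up to 0.079). FKH2 lost it without parental library B (up to 0.115). All of these lost it without the intensity trend as well, and CDC20 also with total-read scaling, while CDC15 passed in all 11 settings (adjusted p up to 0.0470).

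In contrast to the synthesis genes, 5 of 7 genes that cut, cross-link or deacetylate chitin changed, 4 lower and 1 higher. That is 71.4%, against 20% of all features, and the median log2 fold change was -1.20. This list was chosen with earlier results known, and the difference between the lists was not tested. CRH1, a transglycosylase that joins chitin to glucan, had 9156 and 11287 in the parental libraries, against 4094 and 4813 in those of the deletion strain. The strains were well separated, and CRH1 was 2.30-fold lower (authors' deposited table, adjusted p = 0.000319). Its homolog UTR2 (CRH2) had 72.7 and 76.8 against 220 and 196, so this low-level gene was 2.78-fold higher (authors' deposited table, adjusted p = 0.00326). CRR1, the homolog that acts in spore wall formation, had 1624 and 1862 against 521 and 978. Again all deletion values were below the parental ones, by 2.33-fold in the means. CDA1, a sporulation chitin deacetylase, had 358 and 325 against 142 and 102, and was 2.80-fold lower (authors' deposited table, adjusted p = 0.00052 for CRR1 and 0.00114 for CDA1). Its paralog CDA2 had 26.0 and 42.5 against 26.7 and 40.2 and did not pass. CTS1, the chitinase that frees daughter cells, was the lowest of the list relative to the parent, with means of 92722 and 12256, but its reads per library were not recovered (authors' deposited table, adjusted p = 0.0259). The chitinase gene CTS2 had a log2 fold change of 0.63 and did not pass. With limma UTR2 and CDA1 passed in the same 11 settings as QRI1, CRH1 in all but the one without parental library B (adjusted p = 0.0534) and CRR1 in all but the one without the intensity trend (adjusted p = 0.0757).

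**Figure D4:**
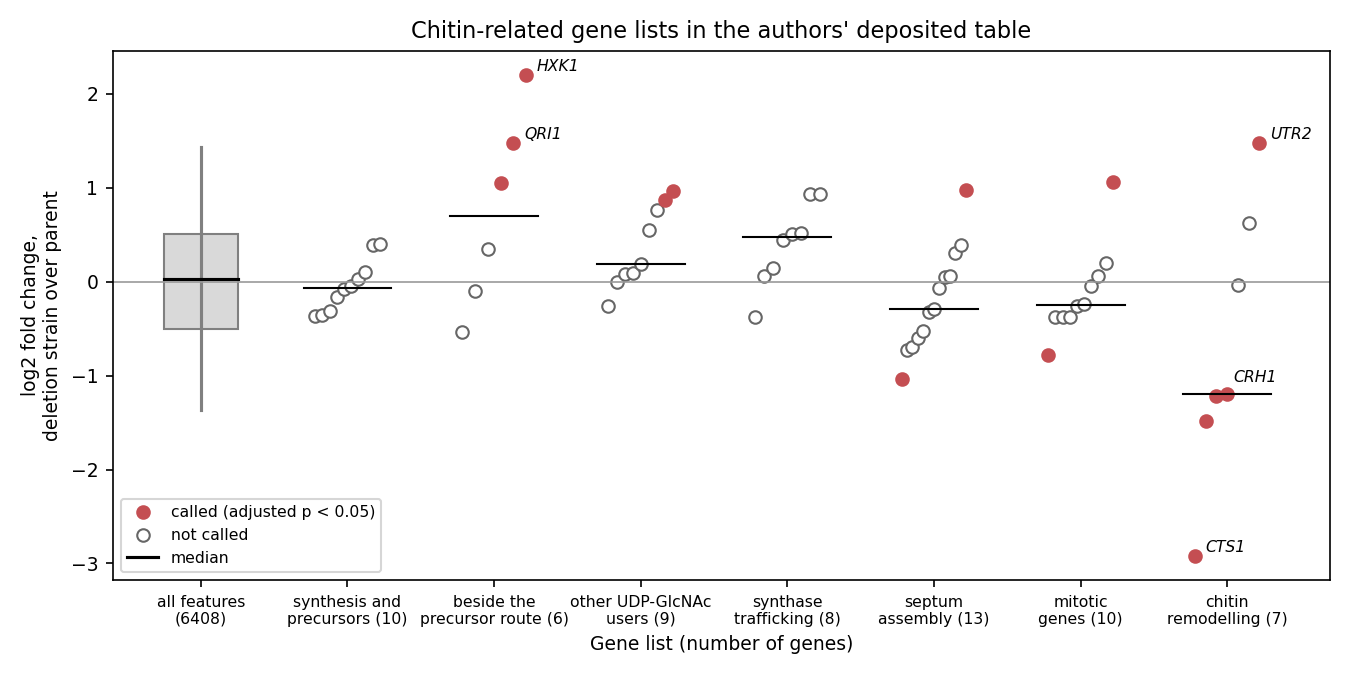
Log2 fold change of the deletion strain over the parent in the authors' deposited table for the 10 chitin synthesis genes and the 6 further lists, each point 1 gene, filled where called, with black lines for medians; the box and line at the left show the quartiles and the range from the 5th to the 95th percentile of all features with a finite value. The chitin synthesis genes lie between -0.37 and 0.40 with 0 filled points, and the chitin remodelling genes spread from -2.92 to 1.48 with 5 filled points.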

How the data were processed

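RNA-seq of 4 libraries, 2 per strain, was analysed from 1 deposited table. The labels' protocols name TRIzol for RNA extraction and standard Illumina library preparation. For the aligner, counter, build, strandedness and test, nothing is given in the sources used here. The authors deposited 1 signal value per strain and feature, a read count per the file headers, which its values show to be an average over 2 libraries after division by a size factor each. The authors also deposited a log2 fold change, which matches the log2 of deletion over parental mean with a largest gap of 5e-05, and a p-value and adjusted p-value per feature. Their calls (adjusted p below 0.05) are the main result, because the design provided for them where only strain means are given.

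A strain mean is the sum of both libraries' whole reads, each multiplied by a fixed step. After a least-squares fit of the steps, every pair of reads that gave the mean to 0.55 units of its last digit, plus the error of the steps, was listed. Exactly 1 pair was found for 98.2% (parent) and 95.5% (deletion strain) of features, and 0 features had none; above a mean of 20000, 79 of 195 and 0 of 161 were solved. Size factors were 1.155 and 0.9636 for the parental and 1.125 and 0.7968 for the deletion libraries, within 0.753% of median-of-ratios factors of the recovered reads. limma 3.58.1 in R 4.3.3 (moderated 2-sided test, intensity trend, Benjamini-Hochberg adjustment over all features tested) used log2(normalised read count + 1) of the 6113 features whose mean reached 1; such fold changes understate changes of low genes. Features without spread between replicates were left out of a fit. Both steps were tested on simulated data. With 2 libraries a strain the smallest p of an exact permutation test is 0.333, and it was not applied.

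The 10 genes and the 6 lists were chosen with earlier results of these data known. The genes named are the 10 members, each list gene called by the authors, and QRI1, CTS1, CLB2, BNI4 and CRH1 whatever their values. RCR1, PFA4, ALG14, CDA2, CTS2, GLK1, PGI1 and GLN1 were added after their values were seen. Names, overlaps and coding lengths came from R64 (5869 of 6484 features matched by systematic name); since the authors' build is not named, no coordinates or sequences are given. The limma p-values and intervals rest on the spread between 2 biological replicates per strain, drawn towards the trend over all features. What spread the authors' p-values measure is not known, since their test is not given. Alternatives changed the pseudocount, the filter on low values, the scaling, the trend and the libraries.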

Additional observations from a re-analysis of the deposited data

How the results depend on the processing

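The count of 0 changed genes among the 10 was again 0 of 9 under limma and every alternative run, and the lowest adjusted p was 0.0924 (CHS7, total recovered reads as scaling). No paired analysis was possible because the recovered libraries carry no replicate numbers of the labels. That scaling moved the median log2 fold change of all features from 0.01 to 0.13, and the share of higher calls from 848 of 1757 to 1103 of 1826; GFA1 and GNA1 turned to 0.080 and 0.020, still below the shift. Leaving out 1 library at a time gave log2 fold changes between -0.042 and 0.094 for CHS3, -0.17 and 0.33 for CHS5 and -0.35 and 0.15 for GNA1, so their sign is not settled. The lone library of a strain was then assumed to vary like the other strain's. Of the 53 listed genes the authors called 14; limma called 13 of 47 recovered, but 5 without the intensity trend, where the total fell from 1757 to 717. In the chitin remodelling list limma called 4 with the trend and 3 without, of 6 recovered genes, and beside the precursor route 2 and 1, of 2; the authors' 5 and 3 include CTS1 and HXK1, which were not recovered. Leaving out 1 library gave 8 to 14 calls over all lists (8 without parental library B), 3 to 4 for remodelling and 2 beside the precursor route. In fits without a deletion library, chosen after seeing the data, keeping 30 features without spread between the parental libraries left 0 calls among all 6113 features and therefore 0 in each list, against 1950 and 1890 without them. Total depth, 2 libraries per strain and the missing CHS1 reads limit the precision.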
